A study of Mus musculus with 2 samples.

Results

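The Hox genes encode homeodomain transcription factors and lie in 4 clusters, Hoxa on chromosome 6, Hoxb on chromosome 11, Hoxc on chromosome 15 and Hoxd on chromosome 2. The 39 protein-coding members were taken by symbol from the mouse annotation, out of 21911 protein-coding genes, with the cluster spans (from the first to the last Hox gene, 492 kb in all) and 100 kb on either side. Chromatin was profiled by DNase-seq in tissue of left cerebral cortex from B6CASTF1/J females, a first-generation hybrid strain, 4 days after birth. The study had 1 group, with no treatment named, and 2 libraries. Their labels carry different animal numbers and the same strain-level donor. They are called replicate 1 and replicate 2 here, and signal of the 2 parental alleles was not separated. DNase I cuts open chromatin, and a region cut more than its surroundings is called a DNase I hypersensitive site (DHS). For each library the authors deposited 2 lists of DHS calls, 4 in all, and the shorter and the longer one are called the stricter and the lenient list here. A shared DHS is the union of overlapping calls that holds a call of each library, in the stricter lists unless said otherwise.

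Hox proteins give cells their position along the body axis, and the order of the genes in a cluster matches the order of their expression along that axis, from the hindbrain with the low numbers to the tail end with the high ones. The forebrain, which includes the cerebral cortex, lies in front of the region where Hox genes are normally used. Hox clusters are a classic target of the Polycomb repressors, which keep them silent, and of the Trithorax proteins, which keep them active, and CTCF, a DNA-binding protein that organises chromatin loops, binds at several places inside them.

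None of the 39 Hox genes had a shared DHS at its promoter (within 1 kb of a transcription start site of the basic annotation), against 55.7% of all protein-coding genes. The spans held 7 shared DHSs. Replicate 1 had 51 stricter calls in the spans and replicate 2 had 19. Of these, 44 and 12 overlapped no stricter call of the other library, or 86.3% and 63.2%, beside 51.9% and 39.3% of the stricter calls in the genome. With 1 group there was no condition to test, so counts and values are described beside the same measure over all genes or sites. A site that is open in few cells cannot be told apart in bulk tissue from one that is weakly open in many.

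The libraries differed in ways that touch these counts. The stricter lists held 59355 calls in replicate 1 and 46566 in replicate 2, and the lenient lists 92872 and 81087. The authors' signal value of a call, whose scaling the files do not state, was under 0.3 in 42.5% of the stricter calls of replicate 1 and in 2.39% of those of replicate 2. Signal values of the libraries are therefore given side by side and are not read as levels on 1 scale. The tissue label was set beside promoter DHSs at cell type markers, few in number and to be read against the 55.7% of all genes. A shared one was present at 4 of 4 pan-neuronal genes, 3 of 6 genes of cortical projection neurons, 2 of 3 of astrocytes, 2 of 3 of oligodendrocyte precursors, 1 of 3 of endothelium, 1 of 3 of meninges and choroid plexus, and 0 of 3 of microglia. Replicate 2 alone had 6 of 6 for projection neurons and 3 of 3 for both astrocytes and oligodendrocyte precursors, and replicate 1 alone had 2 of 3 for meninges and choroid plexus.

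The 7 shared DHSs inside the spans are the calls that both libraries had in common there, and sequences of 5 of them are shown because they hold the bases that both libraries left uncut. They are reference sequence of the plus strand, taken from the RefSeq GRCm38 assembly (mm10), and capitals mark bases inside a footprint, a short stretch protected from cutting, of both libraries. The other two were the weakest of 3 in the Hoxb span and the site in the Hoxa span, which overlaps an untranslated first exon.
Hoxb9 to Hoxb8, intergenic, chr11:96278885-96279060: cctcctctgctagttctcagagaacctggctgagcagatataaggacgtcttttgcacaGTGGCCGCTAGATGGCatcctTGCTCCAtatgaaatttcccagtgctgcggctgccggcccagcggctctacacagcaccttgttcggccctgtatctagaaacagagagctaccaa
Hoxb6, intron, chr11:96294646-96294770: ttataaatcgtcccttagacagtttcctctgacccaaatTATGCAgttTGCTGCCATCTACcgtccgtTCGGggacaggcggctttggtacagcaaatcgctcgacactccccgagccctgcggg
Hoxc9 to Hoxc8, intron of a long Hoxc5 transcript, chr15:102987525-102987700: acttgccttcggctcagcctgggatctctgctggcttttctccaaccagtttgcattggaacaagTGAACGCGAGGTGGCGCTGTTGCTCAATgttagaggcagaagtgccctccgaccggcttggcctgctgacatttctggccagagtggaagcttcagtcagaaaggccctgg
Hoxd9 to Hoxd8, intergenic, chr2:74702346-74702446: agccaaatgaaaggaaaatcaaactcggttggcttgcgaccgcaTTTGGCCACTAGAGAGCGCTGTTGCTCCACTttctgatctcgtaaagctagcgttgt
Hoxd3 and Hoxd4, intron of both and exon of the antisense gene Hoxd3os1, chr2:74715864-74716040: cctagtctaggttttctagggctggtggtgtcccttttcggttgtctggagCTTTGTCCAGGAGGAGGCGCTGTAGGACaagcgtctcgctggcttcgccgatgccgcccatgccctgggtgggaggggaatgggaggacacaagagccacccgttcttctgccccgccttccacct

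The Hoxa span (chr6:52155590-52260880, 11 genes) held 1 shared DHS, at chr6:52221661-52221920, at the far 5′ end of Hoxa7 and next to Hoxa9, with a signal value of 1.33 in replicate 1 and 3.12 in replicate 2. It lay 2.95 kb from the nearest basic start site of Hoxa7, but a longer Hoxa7 transcript outside the basic annotation begins inside it. With the start sites of all annotated transcripts Hoxa7 was thus the only Hox gene with a shared promoter DHS (1 of 39), where the share over all protein-coding genes was 57.1%. Hoxa7 belongs to the middle of the series, which acts along the trunk.

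The Hoxb span (chr11:96194316-96368256, 10 genes) held 3 shared DHSs. The site at chr11:96240361-96240486, in the long gap between Hoxb13 and Hoxb9, had signal values of 0.733 and 1.03. The site between Hoxb9 and Hoxb8 had 1.11 and 1.99. The site in the Hoxb6 intron, which is also an intron of the antisense gene Hoxb5os, had 1.17 and 1.19. Hoxb9, Hoxb8 and Hoxb6 are genes of the trunk and its spinal cord, and the last 2 of these sites lay 2.85 kb from the Hoxb8 start and 2.17 kb from the Hoxb6 start.

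The Hoxc span (chr15:102921103-103036852, 9 genes) held 1, between Hoxc9 and Hoxc8, with signal values of 1.22 and 2.12, at 2.91 kb from the start of Hoxc8. The Hoxd span (chr2:74668310-74765142, 9 genes) held 2. The site between Hoxd9 and Hoxd8 had 1.32 and 1.82, and the site in the shared intron of Hoxd3 and Hoxd4 had 1.63 and 2.84. This last site lay within 1 kb of the start of Hoxd3os1, a noncoding gene on the opposite strand and the only noncoding gene inside the spans with a shared promoter DHS. Hoxc9, Hoxc8, Hoxd9 and Hoxd8 again belong to the trunk, whereas Hoxd3 and Hoxd4 act from the neck and hindbrain.

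In each of the 4 spans the strongest call of each library was one of these shared sites. In replicate 1 the strongest was the Hoxa site in Hoxa, the Hoxb6 intron in Hoxb, the Hoxc9 to Hoxc8 site in Hoxc and the Hoxd3 and Hoxd4 intron in Hoxd. Replicate 2 had the same order except in Hoxb, where the site between Hoxb9 and Hoxb8 was the strongest. The 7 had median signal values of 1.22 and 1.99, near the 0.962 and 1.8 of all 11428 distal shared DHSs (those away from promoters). Their GC content, with a median of 54.4%, was also near the 54.5% of distal sites, and no Hox start site of the basic annotation lay closer than 2.17 kb to a shared DHS. The median distance from such a start site to the nearest shared DHS was 20.7 kb, against 0.028 kb over all protein-coding genes.

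All 7 held a footprint of each library, and in all 7 footprints of the libraries overlapped, as they did in 82.5% of all shared DHSs and in 91.1% of distal ones of like width (101 to 260 bp). The Hoxd9 to Hoxd8 site had a single footprint of 31 bp in replicate 1 and of 33 bp in replicate 2, both starting at the same base. The Hoxc9 to Hoxc8 site likewise had 1 footprint in each library, of 28 and 31 bp from the same first base. In the Hoxd3 and Hoxd4 intron the overlapping footprints spanned 28 and 32 bp. The site between Hoxb9 and Hoxb8 had 16 and 36 bp as its widest, and the Hoxb6 intron had 33 and 13 bp. Footprints of 25 bp or more, a limit chosen after these widths were seen, were thus present in both libraries at 3 of the 7, beside 47.5% of the 7937 distal shared DHSs of like width.

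No shared DHS of the spans held an exact match to the 12-base CTCF consensus on either strand, but 3 of 7 came within 1 mismatch, against 59.1% of distal shared DHSs of like width. These were the Hoxa site, the site between Hoxb9 and Hoxb8 and the site between Hoxd9 and Hoxd8. In the latter 2, all 12 bases lay inside footprints of both libraries, and in the Hoxa site 2 of the 12 did. The other 4 sites each came within 2 mismatches, and in the Hoxd3 and Hoxd4 intron those 12 bases also lay inside footprints of both libraries. The limit of 2 mismatches is looser, and the share of distal sites that meet it was not computed. It therefore does not set these 4 sites apart from other DHSs. The letters GCGCTGT, read off the printed sequences and so chosen after they were seen, occurred on either strand in 3 of 7 (the Hoxc site and both Hoxd sites), each time inside footprints of both libraries, and in 5.18% of the distal sites of like width. Because the letters were picked from these same sequences, the count of 3 is no support for a motif. In both Hoxd sites they start inside the 12 bases closest to the CTCF consensus and run past its end. Of motifs tied to Hox regulation, the Hox and Pbx composite TGATNNAT was in 0 of 7 (4.25% of distal sites of like width) and the homeodomain core TAATNA in 0 of 7 (12.6%). A match is only a run of letters, and no match says nothing about a factor. Across the clusters, exact CTCF consensus matches numbered 1 in the spans (Hoxb, in the gap upstream of Hoxb9) and 2 in the flanks, and none of the 3 lay in a call of any of the 4 lists or in a footprint. Genome-wide, 18.5% of 13119 matches lay in a shared DHS.

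**Figure D1:**
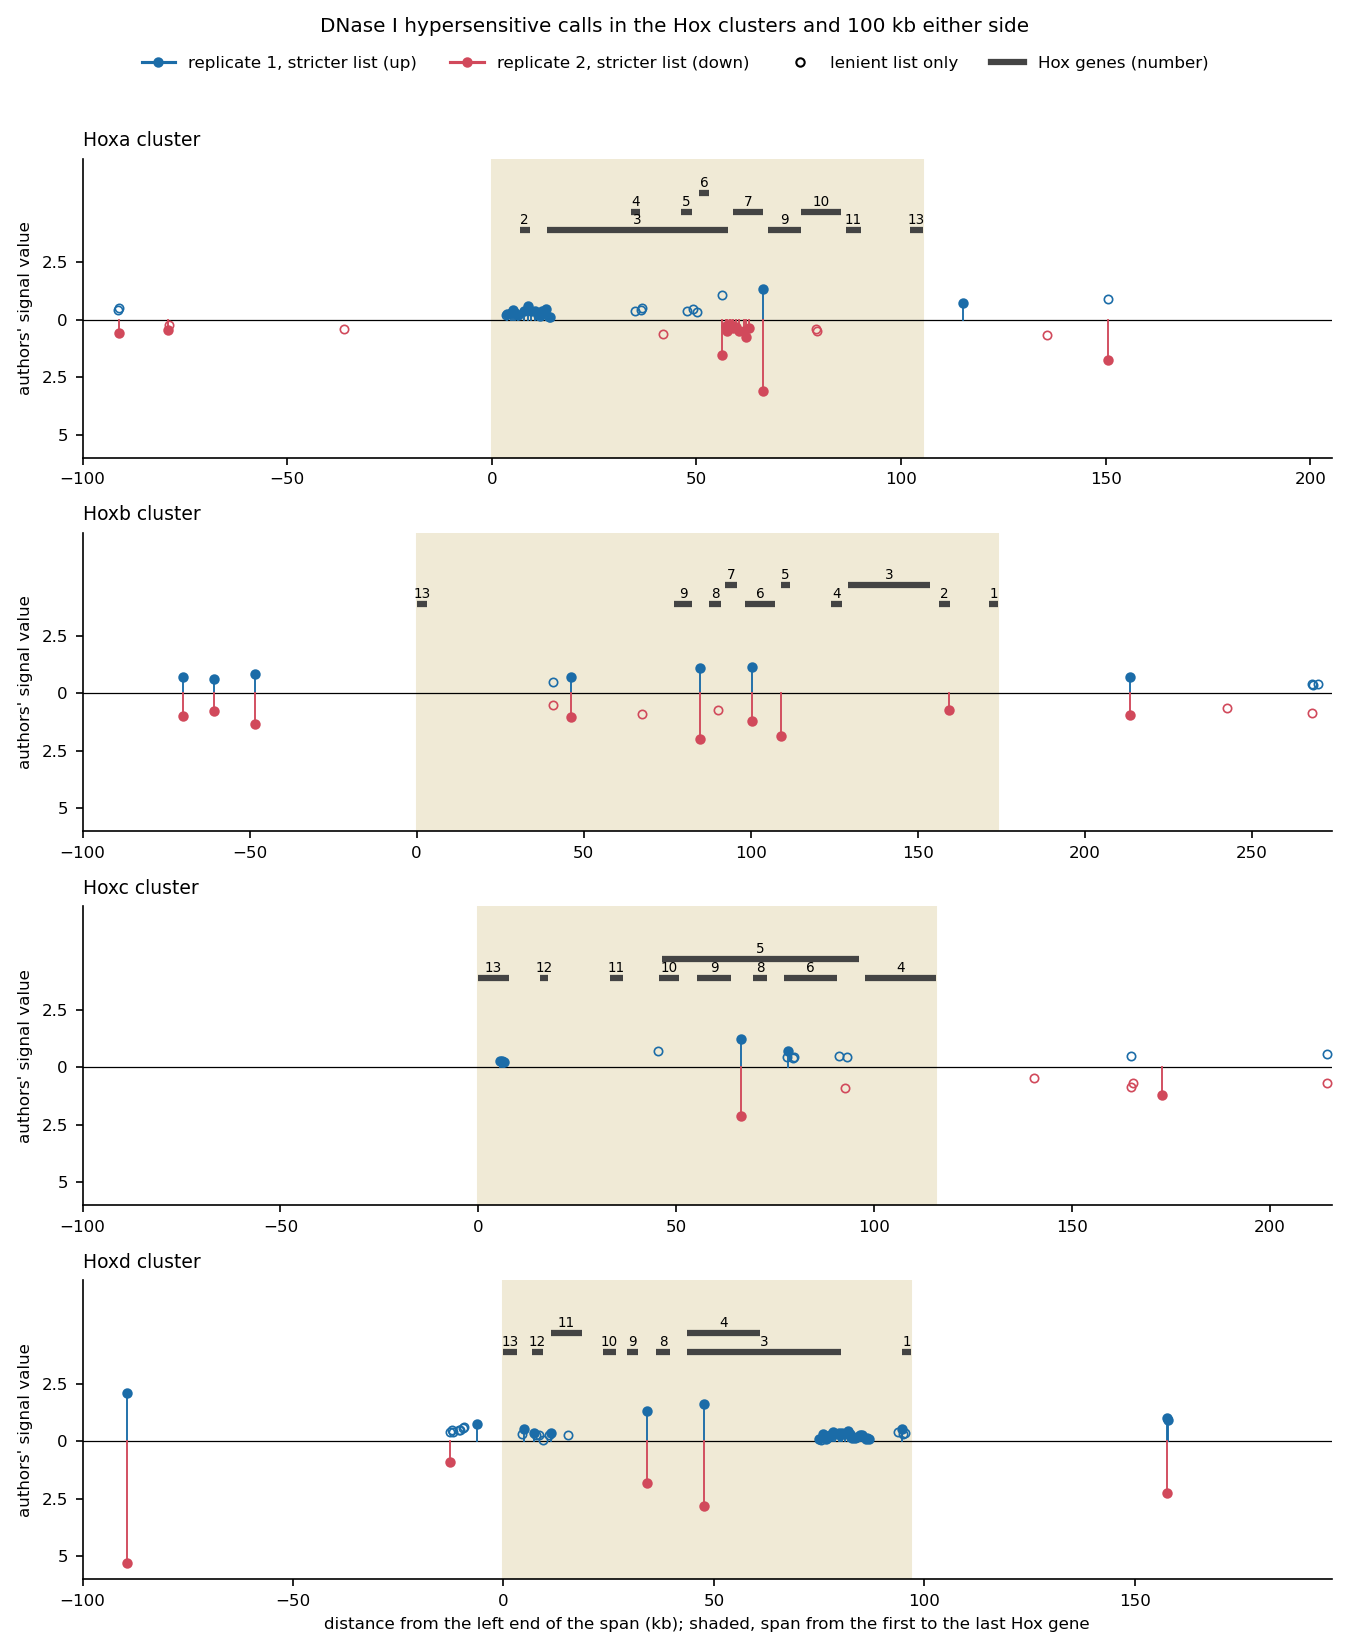
Calls in the 4 Hox clusters by distance in kb from the left end of the span (shaded), with replicate 1 drawn upwards and replicate 2 downwards by the authors' signal value. Filled points are stricter calls, open points are calls of the lenient list only, and grey bars are Hox genes by number; the 7 paired stems inside the shaded spans are the shared DHSs, at 1 place in Hoxa, 3 in Hoxb, 1 in Hoxc and 2 in Hoxd.

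At the promoters themselves the stricter list of replicate 1 had a call at 4 of 39 Hox genes, beside 57% of all protein-coding genes, and that of replicate 2 at 3 of 39, beside 60.2%. No gene was in both counts, which included Hoxa2, Hoxd1 and Hoxd12 in replicate 1 and were Hoxa3, Hoxa7 and Hoxb5 in replicate 2. Most Hox promoters are rich in CpG, and 27 of 39 reached an observed to expected CpG ratio of 0.6 against 11088 of 21911 genes overall. Over all such CpG-richer genes, 90.4% had a shared promoter DHS, while 0 of the 27 Hox genes did.

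Hoxa2, which patterns the hindbrain and the pharyngeal arches, had a promoter call with a signal value of 0.598 in replicate 1 and none in replicate 2. Hoxd1 had 0.528 and Hoxd12, a gene of the developing digits, had 0.374, again in replicate 1 alone. In replicate 2, Hoxa3, which acts in the pharyngeal pouches that form thymus and parathyroid, had 0.488. Hoxa7 had 0.756 there. Hoxb5 had 1.87, the highest value of replicate 2 at any Hox promoter, and no call in replicate 1. All of these but the Hoxb5 call were below the weakest of the 7 shared sites in the same library.

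The lenient lists added Hoxa4 (0.486), Hoxa5 (0.472), Hoxc5 (0.467) and Hoxc10 (0.696) in replicate 1, which made 8 of 39 beside 63.2% of all genes. In replicate 2 they added Hoxa10 (0.504) and Hoxc5 (0.89), which made 5 of 39 beside 64.8%. Hoxc5 was the only Hox gene with a promoter call in each library, and its calls did not overlap, so 0 of 39 had a shared one in the lenient lists either, beside 61.5%. Hoxa5 is needed for lung and neck structures, Hoxa10 for the uterus and lumbar spine, and Hoxc10 for lumbar motor neurons.

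The remaining 27 Hox genes had no promoter call in any of the 4 lists. They were 4 genes of Hoxa, all of Hoxb but Hoxb5, Hoxc4, Hoxc6, Hoxc8, Hoxc9, Hoxc11, Hoxc12 and Hoxc13, and Hoxd3, Hoxd4, Hoxd8, Hoxd9, Hoxd10, Hoxd11 and Hoxd13. Split by position along the axis, a stricter call in either library was present at 4 of 12 genes of groups 1 to 4, which act from the hindbrain to the neck, at 2 of 11 genes of groups 5 to 8, and at 1 of 16 genes of groups 9 to 13, which act in the lower trunk and limbs. Over all protein-coding genes this share was 61.3%.

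The cut-rate files were read apart from the calls. They list runs of bases with a false discovery rate under 0.05, and 10 Hox genes in replicate 1 and 6 in replicate 2 had such a base within 1 kb of a start site, beside 64.2% and 65.6% of all genes. The median Hox gene had 0 such bases in each library, and the median of all protein-coding genes was 595 and 672. Only Hoxb5, with 7 bases in replicate 1 and 267 in replicate 2, and Hoxc5, with 212 and 80, had them in both (62.6% of all genes did), and 25 of 39 had none in either.

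Single genes were far above the all-gene median in 1 library and at 0 in the other. Hoxa2 had 1862 bases in replicate 1 and Hoxd1 had 1190, each with 0 in replicate 2. Hoxa7 had 1814 bases in replicate 2 and Hoxa3 had 994, each with 0 in replicate 1. Hoxd12 had 676 in replicate 1, beside the all-gene median of 595. Hoxa4 (437), Hoxa5 (229), Hoxc10 (73) and Hoxd13 (23) in replicate 1, and Hoxa10 (363) and Hoxa6 (3) in replicate 2, were below the medians. No gene of Hoxb other than Hoxb5 had a single such base.

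**Figure D2:**
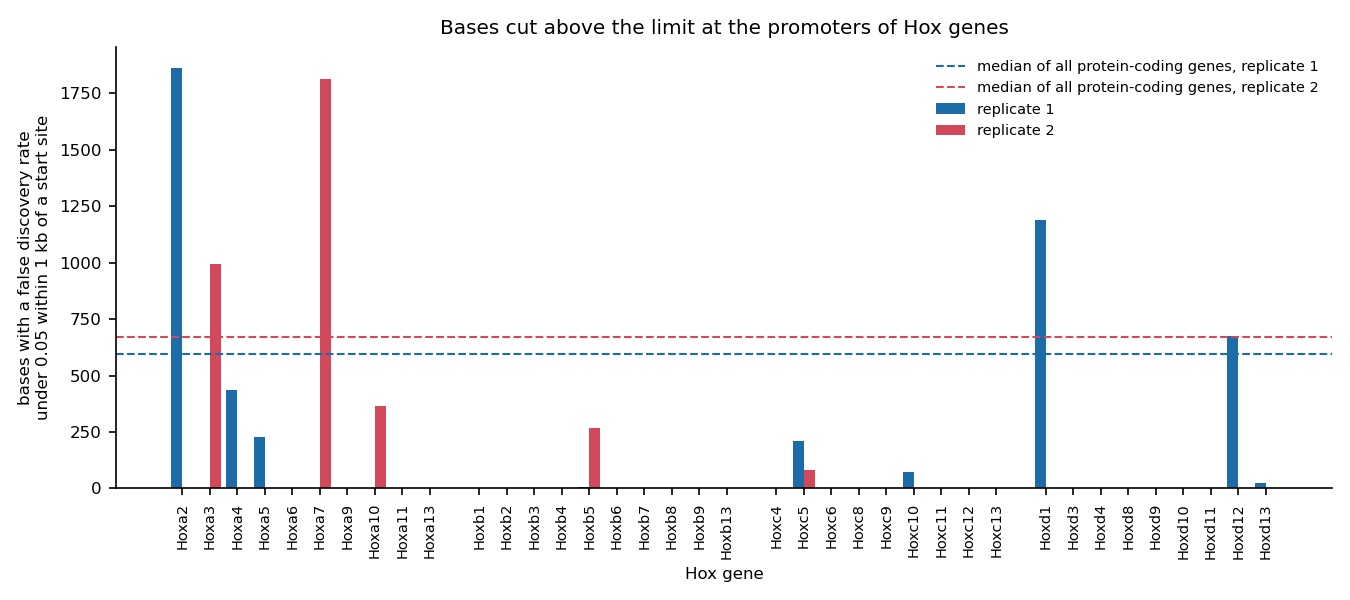
Number of bases with a cut-rate false discovery rate under 0.05 within 1 kb of a start site (the highest over a gene's start sites) for Hox genes, blue for replicate 1 and red for replicate 2, with dashed lines at the medians of all protein-coding genes (595 and 672). Hoxa2 and Hoxd1 stand high in replicate 1 and Hoxa3 and Hoxa7 in replicate 2, and 25 genes have no bar in either library.

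Of the calls in the spans, 36 of replicate 1 and 9 of replicate 2 fell into 3 long runs that 1 library had and the other lacked. A run was taken as 5 or more stricter calls, none matched by even a lenient call of the other library, with gaps of at most 2 kb, a rule chosen after the pattern was seen. In replicate 1 a run of 14 calls over 10.5 kb (chr6:52159292-52169782) reached across Hoxa2 to the 3′ end of Hoxa3. Their signal values were 0.126 to 0.598, and 76.6% of the bases had a false discovery rate under 0.05 in replicate 1 against 0% in replicate 2. A second run of replicate 1, with 22 calls over 11.9 kb (chr2:74743201-74755114), reached from the last exons of Hoxd3 into the noncoding gene Haglr, with signal values of 0.0747 to 0.462 and 88.7% of bases against 0%. In replicate 2 a run of 9 calls over 5.8 kb (chr6:52212761-52218560) joined the start of Hoxa3 to Hoxa7, with 0.205 to 0.756 and 74.1% of bases against 0% in replicate 1.

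The runs include the promoter calls of Hoxa2, Hoxa3 and Hoxa7. In the whole genome replicate 1 had 1811 such runs, with 34.2% of its stricter calls, and replicate 2 had 163, with 2.92%. Inside the Hox spans of replicate 1, calls within runs were weaker than every matched call, with a median signal value of 0.264 (36 calls, highest 0.598) against 1.22 (7 calls, lowest 0.733). In replicate 2 the medians were 0.378 (9 calls, highest 0.756) and 1.99 (7 calls, lowest 1.03). What part depth or the quality of a library has in the runs was not tested.

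**Figure D3:**
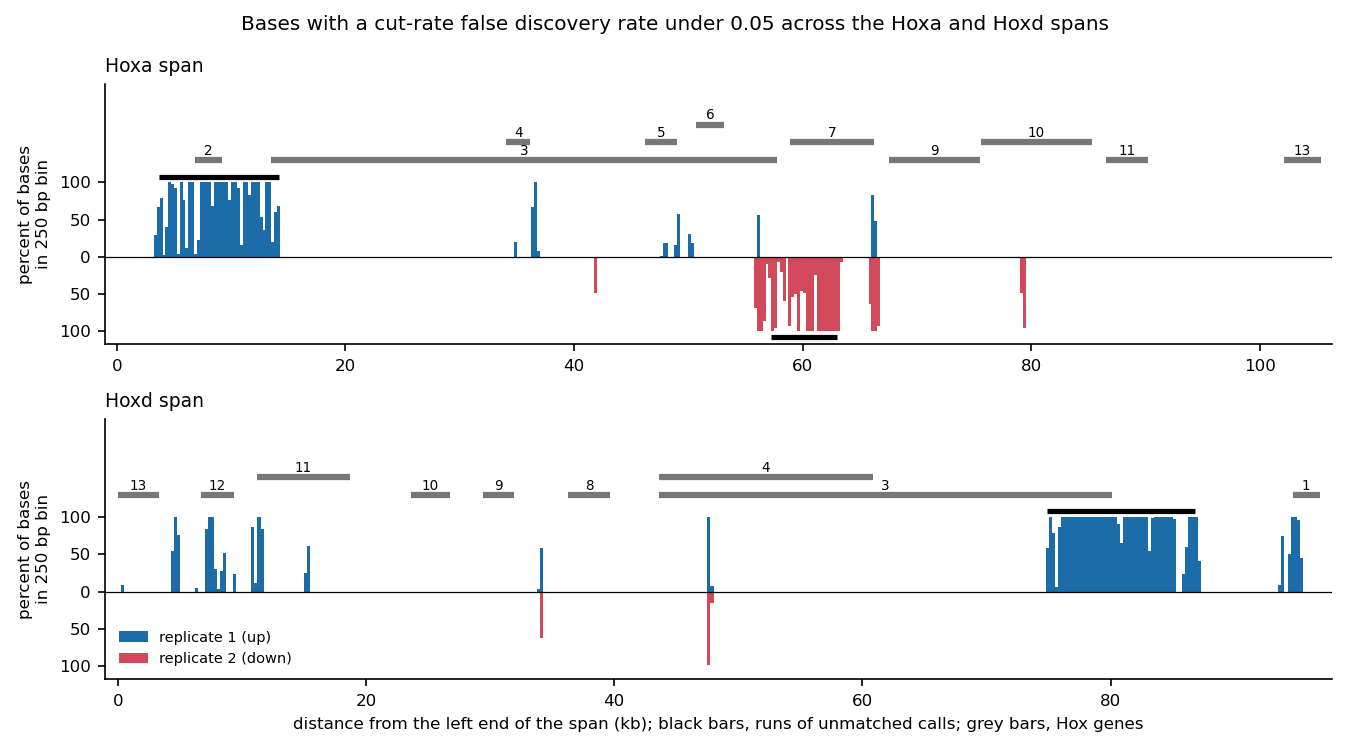
Percent of bases with a cut-rate false discovery rate under 0.05 in bins of 250 bp across the Hoxa and Hoxd spans, replicate 1 upwards and replicate 2 downwards, with black bars over the runs of unmatched calls and grey bars for Hox genes. Dense blocks at Hoxa2 to Hoxa3 and at Hoxd3 to Haglr appear in replicate 1 alone and a block at Hoxa3 to Hoxa7 in replicate 2 alone, while the narrow bars of the shared DHSs appear in both.

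**Figure D4:**
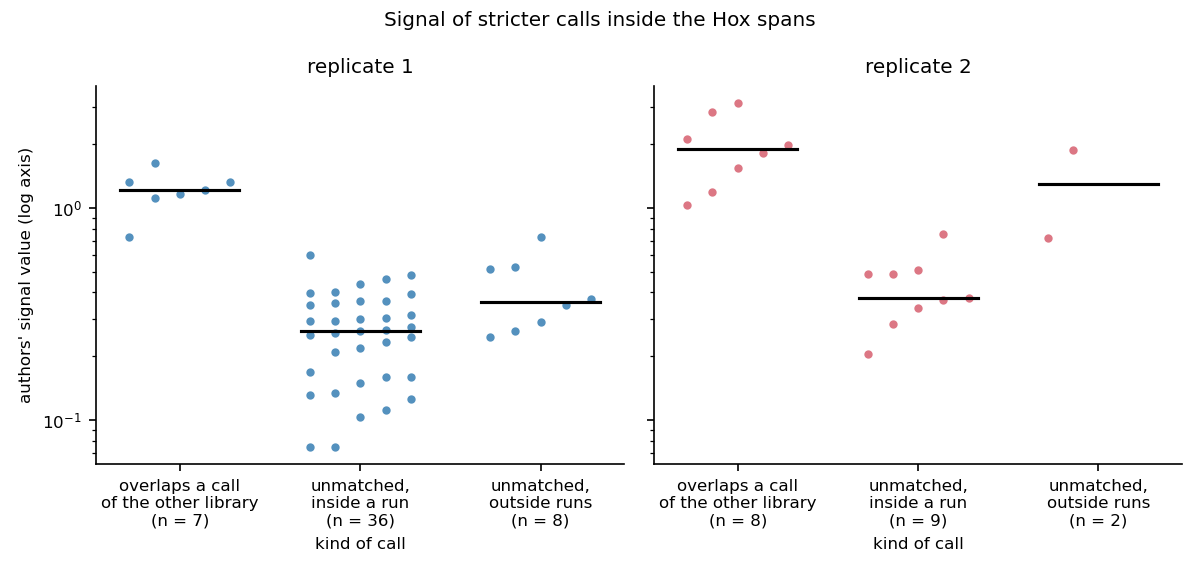
Authors' signal value (log axis) of each stricter call inside the Hox spans, split by library into calls that overlap a call of the other library, unmatched calls inside a run and other unmatched calls, with black lines at the medians. The 36 calls in runs of replicate 1 lie at 0.0747 to 0.598, below all of its 7 matched calls at 0.733 to 1.63, and the 9 calls in runs of replicate 2 lie below all of its matched calls.

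By cluster the libraries differed most in Hoxd. The Hoxd span had 28 stricter calls in replicate 1 and 2 in replicate 2, and both of the latter were the shared sites. Hoxa had 15 and 11 calls, Hoxc had 5 and 1, and Hoxb had 3 and 5. Bases with a false discovery rate under 0.05 made up 15.6% of the Hoxd span in replicate 1 and 0.46% in replicate 2, and 9.12% and 6.54% of the Hoxa span. In the Hoxb span they made up 0.44% and 0.901%, both under the genome-wide 1.24% and 1.09%. Per 100 kb the spans together held 10.4 calls in replicate 1, 3.86 in replicate 2 and 1.42 shared DHSs, where the genome held 2.24, 1.76 and 0.983. The 813 tiles of 100 kb with 5 or more protein-coding genes, which are nearer to the spans in gene content, had medians of 5, 6 and 4, and 81.1% of them held a shared DHS, as did all 4 spans.

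Calls outside runs and without a partner were few. In replicate 1 they were 8, with 3 within Hoxc13 (0.248 to 0.29), 1 in the overlapping introns of Hoxc5 and Hoxc6 (0.729), 1 between Hoxd13 and Hoxd12 (0.518), and 1 each in an exon of Hoxd12 (0.374), an exon of Hoxd11 (0.35) and the start of Hoxd1 (0.528). In replicate 2 they were 2, at the Hoxb5 promoter (1.87) and in Hoxb2 (0.725). A further call of replicate 2, in an intron of Hoxa3 at chr6:52211661-52211840 (1.55), met a lenient call of replicate 1 (1.09). The lenient lists thus had 9 shared DHSs in the spans, the ninth in the gap between Hoxb13 and Hoxb9 at chr11:96235061-96235184 (0.486 and 0.496).

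The 8 cluster edges, from 10 kb inside to 10 kb outside each end, held no shared DHS and no call of replicate 2 in either list. They cover only 160 kb. At the genome rate of 0.983 shared DHSs and 1.76 stricter calls of replicate 2 per 100 kb, few were to be expected. The 100 kb tiles with 5 or more protein-coding genes had higher medians, of 4 and 6. Replicate 1 had 16 stricter and 26 lenient calls at the edges, or 10 and 16.2 per 100 kb against 2.24 and 3.51 in the genome. Of the stricter ones, 8 were at the left end of Hoxa, all of them in the run across Hoxa2. The others were 1 at the Hoxa13 end, 3 at Hoxc13, 3 at the Hoxd13 end and 1 at Hoxd1. Both Hoxb edges, at Hoxb13 and Hoxb1, and the Hoxc4 end were without a call of any list.

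The 100 kb flanks, 800 kb in all, held 9 calls in replicate 1, 11 in replicate 2 and 6 shared DHSs, or 0.75 shared DHSs per 100 kb. Hoxb had 4 of the 6 and Hoxd 2, and Hoxa and Hoxc had none. Left of Hoxb13, the strongest lay in an intron of Ttll6, a tubulin polyglutamylase gene, 48.4 kb from the span, with signal values of 0.836 and 1.32. Weaker ones were at the Ttll6 promoter (0.64 and 0.78) and upstream of it (0.724 and 0.985). Right of Hoxb1 the only shared DHS was intergenic, 39.6 kb away (0.733 and 0.945). Around Hoxd both shared DHSs were promoters: that of Lnpk, which encodes an endoplasmic reticulum protein, 89.2 kb from Hoxd13 (2.1 and 5.29), and that of Mtx2, a mitochondrial import gene, 60.5 kb beyond Hoxd1 (1.01 and 2.25). The Lnpk DHS also lay at the start of the antisense gene 4930445N08Rik.

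Thus 3 of 7 protein-coding flank genes, Ttll6, Lnpk and Mtx2, had a shared promoter DHS, a share near the 55.7% of all protein-coding genes. Calcoco2, Skap1 and the Hox-linked homeobox genes Evx1 and Evx2 did not. Evx2, the gene next to Hoxd13, had a lenient promoter call in replicate 1 (0.635). A stricter call of replicate 2 in a coding exon of Evx2 (0.906) met a lenient call of replicate 1 (0.411). Replicate 1 also had an unmatched stricter call (0.761) 2372 bp upstream of the Evx2 start. Around Hoxa the nearest shared DHS was at the Skap2 promoter 143 kb to the left of the span (1.79 and 6.25) and at the Hibadh promoter 379 kb to its right (2.05 and 5.92). Around Hoxc it was 132 kb to the Hoxc13 side (0.752 and 1.15) and 129 kb to the Hoxc4 side, in an intron of the DNA repair gene Smug1 (1.58 and 4.04).

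Footprints were also unequal between the libraries. The spans held 111 footprints in replicate 1 and 66 in replicate 2, which is 22.6 and 13.4 per 100 kb against 5.81 and 8.49 in the genome. Stricter calls also covered more of the spans (2.65% and 0.819%) than of the genome (0.524% and 0.404%). Per kb of stricter call the spans held fewer footprints, 5.44 and 10.4 against 7.27 and 13.6 in the genome. Footprints of replicate 1 that overlapped one of replicate 2 numbered 12, or 2.44 per 100 kb against 2.48 in the genome. Of the 12, 10 lay in the shared DHSs, a share near that of the genome (53641 of 65593). Hoxd had 52 and 4 footprints, Hoxc 14 and 2, Hoxa 38 and 44, and Hoxb 7 and 16. The run at Hoxa2 to Hoxa3 alone held 25 of replicate 1, the run at Hoxd3 and Haglr 33, and the run at Hoxa3 to Hoxa7 held 20 of replicate 2, with 0 of the other library in each. The flanks held 43 and 51 and the edges 39 and 0.

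Of 41 noncoding genes inside the spans, 10 had a stricter promoter call in replicate 1 and 1, Hoxd3os1, in replicate 2, beside 19.6% and 21.3% of the 12557 genes of the same types in the genome. All of the 10 but Hoxd3os1 had a call inside the runs of replicate 1, so they are not 10 separate sites. Some shared a call, as Hotairm1 and Gm27867 did (0.252) and Gm14424 and Gm14426 did (0.262). The shared count of 1 of 41 stands beside 17.6%. Haglr had calls in replicate 1 alone, of 0.462 at the start site of its short transcript and of 0.528 at its 5′ end, the latter being the call counted for Hoxd1. Hotair, the noncoding gene between Hoxc12 and Hoxc11, and Hottip, beyond Hoxa13, had none in any list. Of the 7 annotated microRNA genes inside the spans, 0 had a stricter promoter call, where 11.9% of all microRNA genes did in replicate 1, 11.5% in replicate 2 and 9.63% in both as a shared DHS. Mir615 in Hoxc had a lenient one in replicate 1 (0.467), which is the call counted for Hoxc5.

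Genes that act with or on Hox genes were compared by lists, as counts only. Among the TALE homeodomain cofactors, which bind DNA together with Hox proteins, 8 of 9 had a shared promoter DHS, led by Pknox1 (1.82 and 12.4) and Pbx3 (1.97 and 5.27). Meis2 had a stricter call in replicate 2 alone (4.06) and a lenient one in replicate 1 (1.34). All 16 Polycomb genes had a shared promoter DHS, led by the methyltransferase gene Ezh2 (2.62 and 9.74) and Cbx8 (2.31 and 12.8). Of the Trithorax and H3K27 demethylase genes 10 of 11 did, led by Kmt2a (3.92 and 14.2) and Kdm6a (3.41 and 17.2), and Kdm6b had a call in replicate 1 alone (0.593). These lists stand above the 55.7% of all genes, but 16 of 16 Polycomb promoters, 10 of 11 Trithorax promoters and 6 of 9 TALE promoters were CpG-richer. Over all CpG-richer genes 90.4% had a shared promoter DHS. The TALE share (88.9%) and the Trithorax share (90.9%) were near that value.

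Known regulators upstream of Hox genes were mixed, with 10 of 15, beside 55.7% of all genes. Of their promoters 14 were CpG-richer, and 90.4% of all CpG-richer genes had a shared promoter DHS. Rxrb, a retinoid receptor gene (3.36 and 13.5), was the highest by rank. Cdx1 and Cdx2, homeobox genes of the tail end, and Cyp26a1, which degrades retinoic acid, had no call in any list. The Evx and ParaHox genes, the closest relatives of the Hox genes, had 0 of 8, and 6 of the 8 had CpG-richer promoters. Cdx1, Cdx2 and Cdx4 belong to this list and to the upstream regulators, so the 2 counts overlap. Of the 8, Gsx1 had a stricter call in replicate 2 (1.35) and a lenient one in replicate 1 (0.7). Cdx4 had a stricter call in replicate 1 (0.374) and a lenient one in replicate 2 (0.221).

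Other homeobox genes split by region. Of 15 genes of forebrain patterning and cortical neurons, 10 had a shared promoter DHS, led by Pou3f3 (1.44 and 8.48) and Pou3f1 (1.52 and 5.22), and all 15 had a stricter call in replicate 2. Of 19 homeobox genes of hindbrain and spinal cord 3 did, with Tlx3 (0.822 and 1.74) and Lhx3 (0.827 and 1.15) the highest by rank. Barhl1 had a lenient call in replicate 2 alone (0.835) and Dbx1 none in any list. In the lenient lists 15 of the 15 forebrain genes and 10 of the 19 hindbrain and spinal genes had a shared promoter DHS, beside 61.5% of all genes and 95.3% of CpG-richer ones, and the Hox count stayed at 0 of 39. CpG-richer promoters made up 14 of the 15 and 16 of the 19. In the stricter lists 90.4% of all CpG-richer genes had a shared promoter DHS, which is above the share of both lists.

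**Figure D5:**
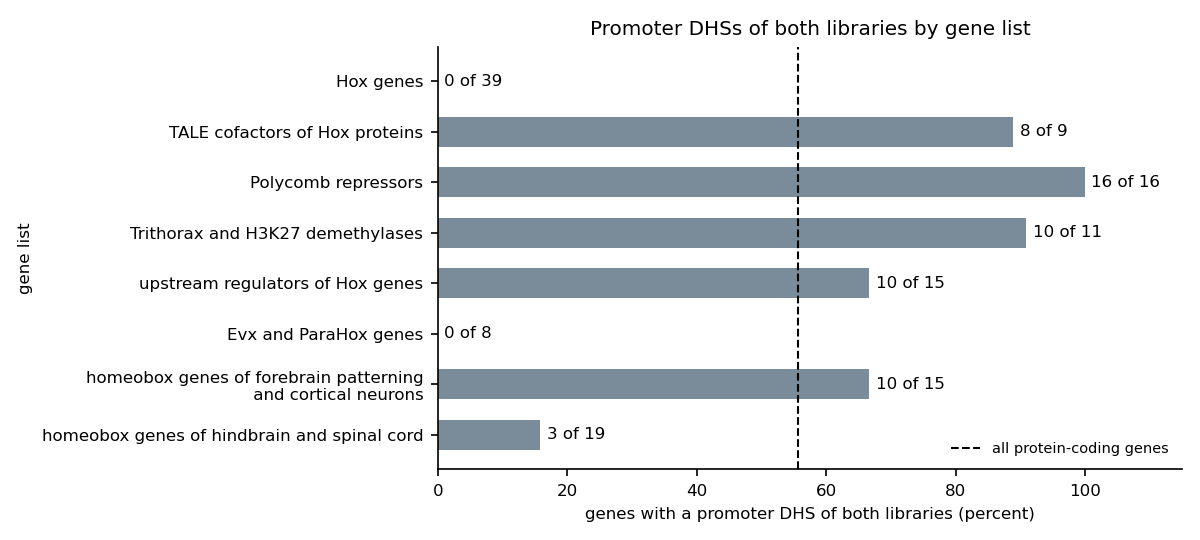
Percent of the genes of each list with a promoter DHS of both libraries (stricter lists), with the count at the end of each bar and a dashed line at the 55.7% of all protein-coding genes. Hox genes (0 of 39), Evx and ParaHox genes (0 of 8) and homeobox genes of hindbrain and spinal cord (3 of 19) lie under the line, and the other 5 lists above it. The line is not matched for CpG. Over CpG-richer genes the share was 90.4%, and only the Polycomb and Trithorax lists reach that.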

How the data were processed

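DNase-seq of 2 libraries was used as deposited, in mm10 coordinates per the labels; the aligner, the peak caller and their settings were not given in the sources used here. Call lists as deposited carry the authors' signal value for each call, made separately for each library. The deposited cut-rate file lists the authors' false discovery rates (q-values) for runs of bases, under 0.05 only. The deposited footprint files carry the value 0.01 on every line, which was not used as a measurement. Of the lists of a library, the shorter was taken as the stricter one; the lenient lists overlapped 96.2% and 98.6% of its calls.

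Calls overlapped at 1 bp or more. Start sites came from the basic set of GENCODE M21; exons and untranslated regions, and the start sites of 1 alternative, came from the full set. Edges reached 10 kb either side of a span end. CpG ratios were taken within 500 bp of the start site, at the CpG-richest one of a gene. Motifs were searched on both strands of GRCm38, which is C57BL/6J sequence, so the CAST alleles of the hybrid were not examined. Overlap and motif steps were checked on made-up data (Python 3.11.15, pandas 2.3.3, NumPy 2.4.6).

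No test was run: 1 group of 2 libraries allows none. The Hox genes, the gene lists and the alternatives were chosen with earlier results of these data known. Values are named for every Hox gene with a promoter call, every shared span DHS, the strongest call of each span and shared DHS of each flank, flank genes with a shared promoter DHS, and, per other list, the 2 genes highest by rank of promoter signal and those without a call (the first 2 in alphabetical order where over 5). The values of 1 Hox gene and 1 listed regulator are not reported or drawn here, though both stay in the counts. Sequences are those of the 2 strongest shared DHSs of each cluster that touch no untranslated region. Alternatives were the lenient lists, other windows, start sites and overlap rules, stronger calls, call centres, other edges and flanks, a stricter false discovery rate and each library alone.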

Additional observations from a re-analysis of the deposited data

How the results depend on the processing

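The count of 0 Hox genes with a shared promoter DHS stayed at 0 with the lenient lists, a 0.5 kb window, a reciprocal overlap of 50%, calls of at least 0.3, the 20000 strongest calls and, chosen after seeing the data, a stricter call in each library whether or not they overlap. It became 2 with a window of 2.5 kb (Hoxb6 and Hoxd8), 1 with gene 5′ ends or, chosen after seeing the data, the start sites of all transcripts (Hoxa7 in both), and 1 with a lenient call of each library whether or not they overlap (Hoxc5), also chosen after seeing the data. Single libraries gave 3 to 4. Shared DHSs in the spans numbered 5 to 9 under the other settings, beside 7, and single libraries gave 19 to 51 calls. Flank DHSs, 6 as reported, were 12 with the lenient lists, 2 among the 20000 strongest calls and 2 within 50 kb, and single libraries gave 9 to 11 calls. Edges stayed at 0 shared DHSs in all settings tried on both libraries, with 0 to 16 calls in single libraries, all of them from replicate 1. Footprints in the spans, 163 after merging the libraries, fell to 101 inside stricter calls and were 66 to 111 in single libraries, and the 12 that overlapped between libraries became 7 with a reciprocal overlap of 50%. CTCF consensus matches in calls stayed at 0 with exact matches, and 3 shared span DHSs held one with at most 1 mismatch. Hox genes with bases under the false discovery limit in both libraries, 2 as reported, became 0 at a limit of 0.001, and single libraries gave 6 to 10. The 57 genes of the other lists with a shared promoter DHS stayed within 1.5 times. The cause of these shifts was not tested.

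The 2 libraries allow no error on any count, replicate 1 holds most of the weak calls, and read depth is unknown, so a site without a call was not detectable here rather than shown to be closed. No paired analysis was possible because there is 1 group.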
